A study of Homo sapiens with 18 samples.

Results

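Progress from G1 into S phase is controlled by a small set of proteins, and the RNA of 10 of their genes was followed in 18 libraries of the human chronic myeloid leukaemia cell line K562. The genes were taken by name: the D-type cyclins CCND1, CCND2 and CCND3, the E-type cyclins CCNE1 and CCNE2, the kinase CDK4, the CDK inhibitors CDKN1B (p27), CDKN2C (p18) and CDKN2D (p19), and the retinoblastoma gene RB1. They are 10 of the 41285 genes in the count table, each with a single row, and all 10 passed the filter on low counts. D-type cyclins bind CDK4 and the related CDK6, and E-type cyclins bind CDK2. Both kinds of kinase phosphorylate the RB1 protein, which otherwise holds back the E2F factors that drive S-phase genes. CDKN2C and CDKN2D belong to the INK4 inhibitors, which bind CDK4 and CDK6, and CDKN1B binds cyclin-CDK complexes, above all those of CDK2. In blood cells the D-type cyclins are set by cytokine signalling and MYC, and the inhibitors rise in many lineages as cells leave the cycle and mature.

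There were 9 groups of 2 libraries in 3 isogenic K562 lines. VPR-D9 cells carry an inducible dCas9-VPR activator and were given doxycycline, in 2 groups coded D2000 and D6, or left untreated. KRAB-D9 cells carry an inducible dCas9-KRAB repressor and were given doxycycline with interferon alpha (IFN), IFN alone, doxycycline alone, or no treatment. Parental cells were given IFN or no treatment. Per the labels' protocols, doxycycline was used at 2 µg/mL and IFN at 1000 U/mL for 24 hours, and KRAB-D9 cells with both agents had doxycycline for 24 hours beforehand. The sources used here explain neither code, give no dose for either group, and do not say whether VPR-D9 and KRAB-D9 are single clones. How long KRAB-D9 cells without IFN had doxycycline is not given here, so their exposure may differ from that of cells with both agents. Parental cells with doxycycline were not analysed here, so an effect of doxycycline itself and an effect of the induced fusion cannot be told apart. Separate cultures for the libraries of a group are not mentioned in the labels, and p-values then reflect only the variation among these samples.

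SAMD9, the gene that the fusions and IFN were used to change, moved in the direction the labels give. It stood at 974 and 948 CPM (counts per M counts of the library) in D2000 and 936 and 960 CPM in D6, against 59.9 and 61.4 CPM in untreated VPR-D9 cells. In KRAB-D9 cells it stood at 0.849 and 0.745 CPM with doxycycline and IFN, against 55 and 53.5 CPM with IFN alone. Without IFN, SAMD9 was already near 0 in untreated KRAB-D9 cells, at 0.75 and 0.364 CPM (40 and 16 counts). Doxycycline alone left 0 and 6 counts (-3.23 ± 0.50, edgeR adjusted p = 8.6e-06), so little SAMD9 RNA was there to lose. Libraries held 32.7 M to 63 M counts, the fewest in replicate 1 of KRAB-D9 with IFN. Over genes with at least 200 counts in a pair, the variance between the libraries of that group averaged 19.6 times counting noise, against 4.71 to 6.98 times in the other 8 groups. Erythroid markers of the K562 line were present in every library, GATA1 at 127 to 247 CPM and TFRC at 219 to 1720 CPM, while the myeloid gene MPO was at 0 in 11 libraries and the epithelial gene KRT5 and fibroblast gene LUM in 16 each. Other genes of those marker lists were present: EPCAM at 30.4 to 98.8 CPM, ITGAM at 0.78 to 192 CPM, COL1A1 at 0.479 to 31.4 CPM and COL1A2 at 0 to 36.8 CPM. In bulk RNA, fewer cells in a given phase or state and less RNA per cell cannot be told apart.

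Levels below are CPM scaled by TMM, and levels of different genes are compared only as RPKM, that is CPM per kilobase of the exon length in the count table. On the RPKM scale CDK4 was the most abundant of the 10, with a median of 64.3 over the 18 libraries, followed by CDKN2C at 42.7 and CCND3 at 41.5. CCNE1 had a median of 16, RB1 of 10.4, CDKN1B of 7.35, CCNE2 of 4.8 and CDKN2D of 3.33. CCND2 and CCND1 were the lowest, with median RPKM of 2.83 and 1.49. They also varied most between groups. CCND1 ran from a group mean of 0.0715 CPM in D6, which rests on 2 and 5 counts, to 19.9 CPM in untreated KRAB-D9 cells. For CCND2 the highest group mean was 5.87 times the lowest, against 1.34 times for RB1 and 1.44 to 1.93 times for the other 7 genes.

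**Figure D1:**
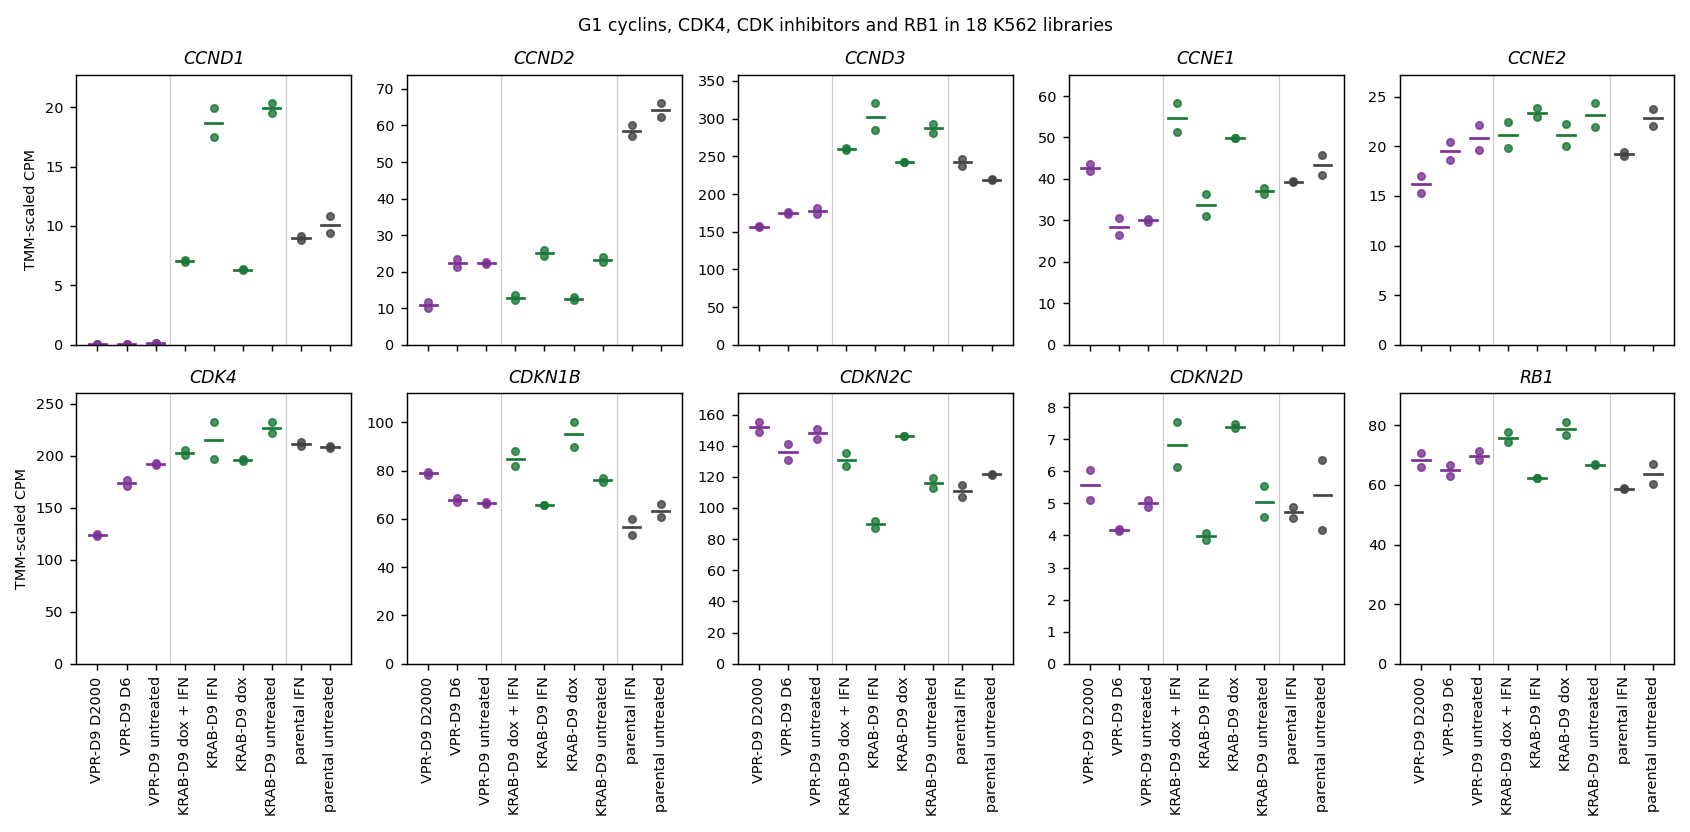
Level of each of the 10 genes in TMM-scaled CPM (vertical axes, each from 0) in the 9 groups (horizontal axis: VPR-D9 in purple, KRAB-D9 in green, parental in grey). Points are single libraries and bars are group means of 2 libraries; CCND1 is near 0 in the 6 VPR-D9 libraries, and CCND2 is highest in the 4 parental libraries.

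Promoter letters are shown for CDK4 and CDKN2C, since the effect of doxycycline on these genes, with RB1, differed between the engineered lines. MYC and E2F proteins bind the motifs searched, and values of MYC, E2F4 and E2F targets are given below. In the promoter table used here (RefSeq, GRCh38.p14), 7 of the 10 genes were matched, in 11 windows of the 250 bases before a start; CCND1, CCND2 and CCNE2 were not matched. A listed start can lie inside the gene as the count table spans it. The windows printed here and those of CCND3, CDKN1B and CDKN2D are among such cases. So is that of RB1 (chr13:48476200-48476449, in a gene beginning at 48303744). The motifs were CACGTG (the E-box bound by MYC with MAX) and 3 forms of E2F site, TTCCCGC, TTTCGCGC and TTTGGCGC, on both strands. The CDK4 window, chr12:57752311-57752560 on the minus strand, held CACGTG 3 times, beginning 216, 196 and 101 bases before the start. The CDKN2C window at chr1:50968456-50968705, plus strand, held TTCCCGC on either strand 2 times, beginning 131 and 34 bases before the start. Capitals mark these matches, none of which overlaps another.
CDK4: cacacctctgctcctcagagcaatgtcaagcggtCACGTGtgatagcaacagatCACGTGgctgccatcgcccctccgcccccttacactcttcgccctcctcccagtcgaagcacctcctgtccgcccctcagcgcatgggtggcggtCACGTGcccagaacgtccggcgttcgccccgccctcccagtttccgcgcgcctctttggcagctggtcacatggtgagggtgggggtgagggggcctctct
CDKN2C: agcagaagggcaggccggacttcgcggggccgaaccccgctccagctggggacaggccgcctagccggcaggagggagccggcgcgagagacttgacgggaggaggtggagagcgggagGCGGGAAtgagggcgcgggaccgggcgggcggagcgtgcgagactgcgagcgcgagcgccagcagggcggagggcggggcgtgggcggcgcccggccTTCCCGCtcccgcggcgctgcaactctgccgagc
Of 35116 such windows in the table, 6.34% held CACGTG at least once and 28 (0.0797%) at least 3 times; 5.52% held TTCCCGC, 0.439% TTTCGCGC and 0.55% TTTGGCGC. Another 2 windows of CDKN2C each held a single CACGTG, 220 and 69 bases before their starts, and the windows of CCND3, CCNE1, CDKN1B, CDKN2D and RB1 held none of the 4 motifs. These windows, that of RB1 among them, are not printed, so all letters shown come from windows with matches. A match of letters describes the window and does not show a bound factor.

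Doxycycline in KRAB-D9 cells without IFN lowered the D-type cyclins and CDK4 and raised CCNE1, the CDK inhibitors and RB1. Of the 10 genes 9 were called, 5 higher and 4 lower, where 24.7% of all 22143 genes tested were called, 12% higher and 12.7% lower. A call is an edgeR quasi-likelihood p under 0.05 after adjustment by Benjamini-Hochberg, from 2 libraries in each group. The largest change was in CCND1, the cyclin that couples growth factor signals to CDK4 in many tissues (ENSG00000110092.4, chromosome 11, 69641156 to 69654474, GRCh38). It had 6.4 and 6.26 CPM with doxycycline, against 19.5 and 20.3 CPM in untreated KRAB-D9 cells, so the groups lay far apart. The level was 3.14 times lower, a log2 fold change of -1.65 ± 0.13 (SE; edgeR adjusted p = 1.19e-12). CCND2, the D-type cyclin most tied to cytokine signals in blood cells (ENSG00000118971.9, chromosome 12, 4269771 to 4305353), had 13.1 and 12.2 CPM with doxycycline, against 23.9 and 22.6 CPM in untreated cells. It fell by 0.88 ± 0.09 on the log2 scale (edgeR adjusted p = 2.17e-10). CCND3, which sets how often red-cell precursors divide in mice (ENSG00000112576.13, chromosome 6, 41934934 to 42050357), had 242 and 243 CPM against 281 and 293 CPM in untreated cells. All 3 D-type cyclins thus had both treated libraries below both untreated ones, though the share of all genes with such separation was not counted. The change in CCND3 was the smallest of the 3 (-0.25 ± 0.04, edgeR adjusted p = 2.31e-05).

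The E-type cyclins did not move together. CCNE1, an activator of CDK2 at the G1/S boundary (ENSG00000105173.14, chromosome 19, 29811991 to 29824312), had 49.8 and 49.8 CPM with doxycycline, against 36.4 and 37.8 CPM in untreated KRAB-D9 cells (0.43 ± 0.08, edgeR adjusted p = 2.9e-05). CCNE2, its partner in the family (ENSG00000175305.18, chromosome 8, 94879770 to 94896678), had 22.2 and 20 CPM against 21.9 and 24.3 CPM, with overlapping groups (-0.13 ± 0.09, edgeR adjusted p = 0.367). CDK4, the kinase that D-type cyclins activate (ENSG00000135446.17, chromosome 12, 57747727 to 57756013), had 197 and 195 CPM against 222 and 232 CPM, and both treated libraries were below the untreated ones (-0.21 ± 0.05, edgeR adjusted p = 0.000737).

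Each inhibitor was higher with doxycycline. CDKN1B (ENSG00000111276.12, chromosome 12, 12685498 to 12722369) had 100 and 89.8 CPM, against 75.1 and 76.9 CPM in untreated KRAB-D9 cells (0.32 ± 0.06, edgeR adjusted p = 3.69e-05). CDKN2C (ENSG00000123080.12, chromosome 1, 50960745 to 50974634) had 146 and 146 CPM against 113 and 119 CPM (0.33 ± 0.05, edgeR adjusted p = 9.62e-07). The groups did not overlap in either gene. CDKN2D (ENSG00000129355.7, chromosome 19, 10566460 to 10569059) was near the bottom of the range, with 7.34 and 7.47 CPM against 5.53 and 4.57 CPM (0.55 ± 0.17, edgeR adjusted p = 0.0164). Its call was lost without untreated replicate 2 (edgeR adjusted p = 0.199), doxycycline replicate 1 (0.0607) or doxycycline replicate 2 (0.0779). RB1 (ENSG00000139687.16, chromosome 13, 48303744 to 48599436) had 81 and 76.7 CPM against 66.9 and 66.8 CPM (0.24 ± 0.06, edgeR adjusted p = 0.0011), again with no overlap. Cell type markers moved with doxycycline in KRAB-D9 cells too. Of 10 erythroid markers 7 were higher and none lower, with a summed 3380 to 3450 CPM against 2980 to 3000 CPM in untreated cells. All 3 tested fibroblast markers were lower (sum 12.4 to 14.3 against 29.9 to 35 CPM), and T cell markers summed to 1.26 to 1.27 against 5.32 to 5.66 CPM. Their part in the results was not tested.

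With IFN present, doxycycline moved the same families in the same directions, and 8 of the 10 genes were called, 5 higher and 3 lower, against 22.3% of all genes tested (10.4% higher, 11.9% lower). This comparison has its own controls, the KRAB-D9 cells with IFN alone. CCND1 had 7.17 and 7 CPM with both agents, against 19.9 and 17.5 CPM with IFN alone (-1.40 ± 0.13, edgeR adjusted p = 8.66e-11), and CCND2 had 12.3 and 13.5 CPM against 25.9 and 24.3 CPM (-0.96 ± 0.09, edgeR adjusted p = 3.12e-11). CCND3 had 261 and 259 CPM against 285 and 320 CPM (-0.22 ± 0.04, edgeR adjusted p = 0.000133). Each D-type cyclin again had both treated libraries below both controls, a separation whose share over all genes was not counted. CCNE1 had 58.2 and 51.3 CPM with both agents, against 36.3 and 31.1 CPM with IFN alone, 1.62 times as much (0.71 ± 0.08, edgeR adjusted p = 2.55e-09). CDKN2C had 135 and 127 CPM against 87.2 and 91.9 CPM (0.55 ± 0.05, edgeR adjusted p = 3.2e-11). These were the largest rises among the well-expressed genes of the set. CDKN1B (0.37 ± 0.06, edgeR adjusted p = 6.55e-06), CDKN2D (0.77 ± 0.18, edgeR adjusted p = 0.00109) and RB1 (0.28 ± 0.06, edgeR adjusted p = 0.000171) were higher as well. Of the erythroid markers 6 were higher, with a sum of 3790 to 3860 CPM with both agents against 3360 to 3570 CPM with IFN alone, and the fibroblast markers summed to 19 to 21.7 against 36.1 to 39.9 CPM.

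CDK4 and CCNE2 were not called with IFN present. CDK4 had 201 and 205 CPM with both agents, inside the range of 197 and 232 CPM with IFN alone (-0.09 ± 0.05, edgeR adjusted p = 0.217). The spread was in the IFN libraries: without their replicate 1 CDK4 was called lower (-0.20, edgeR adjusted p = 0.000344). CCNE2 had 22.4 and 19.8 CPM against 23.8 and 22.9 CPM (-0.14 ± 0.09, edgeR adjusted p = 0.314). Reads of INTS8 and NDUFAF6, which overlap CCNE2 and had more counts than it, may be mixed with it, since no source used here states whether reads were counted by strand.

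The doxycycline effect itself was not called different with and without IFN for any of the 10 genes by edgeR or by DESeq2, where edgeR called 0.158% of all genes, 0.0632% higher and 0.0948% lower. Before adjustment 2 genes had a p under 0.05. These were CDKN2C, whose rise was larger with IFN by 0.21 ± 0.07 on the log2 scale (edgeR adjusted p = 0.289), and CCNE1, larger by 0.28 ± 0.11 (edgeR adjusted p = 0.411). Without replicate 2 of KRAB-D9 with IFN, 2 genes were called, CDK4 (0.25) and CDKN2C (0.25).

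In VPR-D9 cells the D2000 group lowered CCND2, CCND3, CCNE2 and CDK4 and raised CCNE1 and CDKN1B. These were 6 calls in 10 genes, 2 higher and 4 lower, where 46.1% of all genes were called, 21.9% higher and 24.2% lower. CCND2 had 11.8 and 10 CPM in D2000, against 22.6 and 22.1 CPM in untreated VPR-D9 cells, 2.05 times less (-1.03 ± 0.08, edgeR adjusted p = 2.04e-13). CDK4 had 125 and 123 CPM in D2000, against 191 and 193 CPM in untreated cells, 1.55 times less (-0.63 ± 0.05, edgeR adjusted p = 2.6e-14). For each of these genes the D2000 libraries stood well below the untreated ones, and the CDK4 pairs were tight. CCNE1 had 43.5 and 41.9 CPM in D2000, against 29.7 and 30.4 CPM in untreated cells (0.51 ± 0.08, edgeR adjusted p = 3.28e-07). CDKN1B had 79.6 and 78.2 CPM against 66.2 and 67.1 CPM (0.24 ± 0.06, edgeR adjusted p = 0.000557). In both genes each D2000 library was above each untreated library.

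The smaller D2000 changes depended on scaling. D2000 libraries had the highest TMM factors (1.167 and 1.192), and scaling by library totals in place of TMM raises the median of all genes in this comparison by 0.23 on the log2 scale. CCND3 had 157 and 156 CPM in D2000 against 181 and 174 CPM in untreated cells (-0.18 ± 0.04, edgeR adjusted p = 0.000587), and its sign turned with library totals (0.05, edgeR adjusted p = 0.361). CCNE2 had 15.3 and 17 CPM against 22.1 and 19.6 CPM (-0.37 ± 0.09, edgeR adjusted p = 0.00092), a call lost with library totals (-0.13, edgeR adjusted p = 0.238). CDKN2C had 155 and 149 CPM against 151 and 144 CPM, with overlapping groups (0.04 ± 0.05, edgeR adjusted p = 0.506). RB1 had 70.7 and 66 CPM against 68.2 and 71.4 CPM, also overlapping (-0.03 ± 0.06, edgeR adjusted p = 0.716). With library totals both were called higher, CDKN2C by 0.27 (edgeR adjusted p = 7.33e-06) and RB1 by 0.20 (edgeR adjusted p = 0.00245). CDKN2D had 5.12 and 6.04 CPM against 5.12 and 4.89 CPM and was not called (0.16 ± 0.17, edgeR adjusted p = 0.502). CCND1 had only 6 and 7 counts in the D2000 libraries and 10 and 12 counts in the untreated ones, too few to show a change (-0.91 ± 0.47, edgeR adjusted p = 0.118).

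None of the 10 genes was called in D6 against the same untreated VPR-D9 libraries by edgeR or by DESeq2, where edgeR called 6.6% of all genes, 3.19% higher and 3.41% lower. SAMD9 itself was not called different between D6 and D2000 (edgeR adjusted p = 0.821), though with library totals it was called lower in D6 (-0.21, edgeR adjusted p = 0.00141). Before adjustment 3 genes had a p under 0.05, all lower: CDK4, CDKN2C and CCND1. CDK4 had 171 and 177 CPM in D6, below the 191 and 193 CPM of untreated cells (-0.14 ± 0.05, edgeR adjusted p = 0.0725), and CDKN2C had 141 and 131 CPM against 151 and 144 CPM (-0.12 ± 0.05, edgeR adjusted p = 0.175). CCND1 had 2 and 5 counts in D6. CCND2 in D6, at 21.4 and 23.4 CPM, spanned the untreated values (0.00 ± 0.08, edgeR adjusted p = 0.998), as did CCNE1 at 26.4 and 30.7 CPM (-0.08 ± 0.08, edgeR adjusted p = 0.718). The log2 fold changes of the other 5 genes lay between -0.27 (CDKN2D) and 0.03 (CDKN1B).

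Set directly against each other, D6 and D2000 differed in 7 of the 10 genes, 4 higher and 3 lower in D6, where 40.4% of all genes were called, 21.7% higher and 18.8% lower. CCND2 was higher in D6 than in D2000 by 1.03 ± 0.09, CDK4 by 0.49 ± 0.05 and CCND3 by 0.16 ± 0.04 (edgeR adjusted p = 3.86e-13, 4.33e-11 and 0.00248). CCNE1 (-0.58 ± 0.08) and CDKN1B (-0.21 ± 0.06) were lower in D6 (edgeR adjusted p = 3.47e-08 and 0.00266). The difference in CCND3 turned with library totals (-0.03, edgeR adjusted p = 0.568). CCNE2 was higher in D6 (0.27 ± 0.09, edgeR adjusted p = 0.0182) and CDKN2C lower (-0.16 ± 0.05, edgeR adjusted p = 0.00691). Both calls were lost without D2000 replicate 1 (edgeR adjusted p = 0.219 for CCNE2 and 0.0966 for CDKN2C) or D6 replicate 2 (0.203 and 0.2). With library totals the CCNE2 call was lost (0.07, edgeR adjusted p = 0.577), and RB1 (-0.27, edgeR adjusted p = 0.000119) and CDKN2D (-0.62, edgeR adjusted p = 0.00459) were called lower in D6. CDKN2D was also called lower without D2000 replicate 1 (-0.54, edgeR adjusted p = 0.0453), and as fitted it stood at -0.42 ± 0.18 (edgeR adjusted p = 0.0532). RB1 (-0.08 ± 0.06, edgeR adjusted p = 0.315) and CCND1 (-0.41 ± 0.62, edgeR adjusted p = 0.667) were not called.

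**Figure D2:**
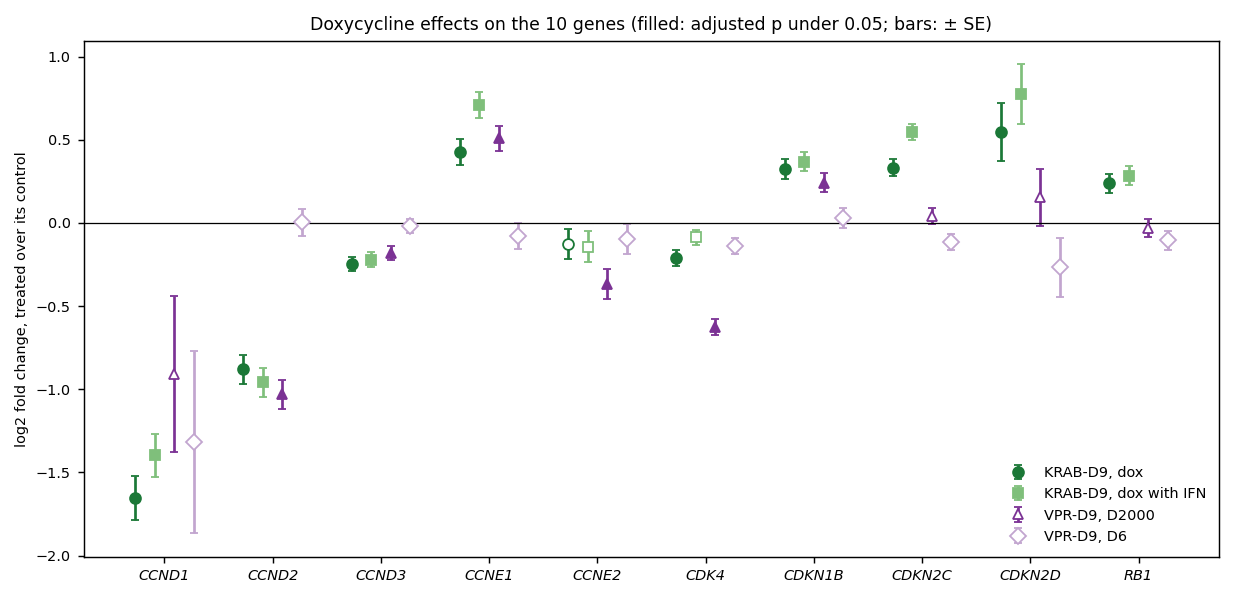
Log2 fold change of each gene (vertical axis, bars ± SE) in 4 comparisons of doxycycline-treated against control cells: KRAB-D9 without IFN, KRAB-D9 with IFN, VPR-D9 D2000 and VPR-D9 D6, with 2 libraries per group. Filled symbols have an edgeR adjusted p under 0.05; CCND2 is filled and near -1 in 3 comparisons and at 0.00 in D6, and CDK4 is lowest in D2000 at -0.63.

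The change in D2000 VPR-D9 cells and the change in doxycycline-treated KRAB-D9 cells without IFN come from separate lines and controls, and their difference was tested gene by gene. It was called for 3 of the 10 genes, all more negative in VPR-D9, where 31.3% of all genes were called, 12.2% higher and 19.1% lower. CDK4 fell more in D2000 VPR-D9 cells (-0.63) than in doxycycline-treated KRAB-D9 cells (-0.21), a difference of -0.42 ± 0.07 (edgeR adjusted p = 3.44e-06). Library totals raised the median difference of all genes by 0.192, so the size of the CDK4 difference depends on scaling. For CDKN2C the difference was -0.29 ± 0.07 (edgeR adjusted p = 0.000716) and for RB1 -0.27 ± 0.08 (edgeR adjusted p = 0.0069): both rose in KRAB-D9 and were not called in D2000. The CDKN2C and RB1 differences were not called with library totals (-0.10 and -0.08, edgeR adjusted p = 0.303 and 0.528), nor was that of RB1 without D2000 replicate 2 (edgeR adjusted p = 0.0967). The difference was 0.08 ± 0.11 for CCNE1, -0.15 ± 0.12 for CCND2 and -0.08 ± 0.08 for CDKN1B, none of them called (edgeR adjusted p = 0.64, 0.401 and 0.534). With library totals CCNE1 (0.27, edgeR adjusted p = 0.0447) and CCND3 (0.26, edgeR adjusted p = 9e-04) were called more positive in VPR-D9. Marker genes of other cell types moved with D2000. The summed CPM of 4 myeloid markers was 191 to 193 in D2000 and 57 to 58.8 in D6, against 7.98 to 8.63 in untreated VPR-D9 cells, almost all of it ITGAM. The summed CPM of 10 erythroid markers was 649 to 655 in D2000 and 1180 to 1210 in D6, against 1330 in untreated VPR-D9 cells. Fibroblast markers summed to 32.2 to 33.1 CPM in D2000 and 32.4 to 32.6 CPM in D6, against 3.98 to 4.74 CPM untreated, and epithelial markers to 30.4 to 30.7 and 60.9 to 61.1 CPM, against 64.4 to 69.6 CPM. B cell markers summed to 14.5 to 15 CPM in D2000 and 8.3 to 8.33 CPM in D6, against 7.35 to 9.05 CPM untreated. The part of these shifts in the cell cycle results was not tested.

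Few of the 10 genes were called with IFN. In KRAB-D9 cells 2 were called, both lower, where 6.4% of all genes were called (3.98% higher, 2.42% lower), and both are CDK inhibitors. CDKN2C had 87.2 and 91.9 CPM with IFN, against 113 and 119 CPM in untreated KRAB-D9 cells, with the groups apart (-0.37 ± 0.05, edgeR adjusted p = 6.44e-07). CDKN1B had 65.6 and 65.9 CPM against 75.1 and 76.9 CPM (-0.21 ± 0.06, edgeR adjusted p = 0.0263). The CDKN1B call was lost without untreated replicate 1 (edgeR adjusted p = 0.0898), untreated replicate 2 (0.188) or IFN replicate 1 (0.0523). The other 8 genes lay between -0.34 (CDKN2D) and 0.11 (CCND2). Leaving out IFN replicate 2 added CDK4 (-0.20, edgeR adjusted p = 0.00107), and leaving out IFN replicate 1 added CCND3 (0.16, edgeR adjusted p = 0.0129). In doxycycline-treated KRAB-D9 cells CDKN2C fell by 0.16 ± 0.05 with IFN (135 and 127 CPM with both agents, against 146 and 146 CPM with doxycycline alone, edgeR adjusted p = 0.0406). That was the single call among the 10 genes, where 4.89% of all genes were called, 3.12% higher and 1.77% lower. It was lost without doxycycline replicate 1 (edgeR adjusted p = 0.179), doxycycline replicate 2 (0.186) or replicate 2 with both agents (0.415). Without doxycycline replicate 2, CDKN1B was called lower (-0.24, edgeR adjusted p = 0.0372). The other 9 genes lay between -0.16 (CDKN1B) and 0.16 (CCND1).

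In parental cells the single call was CCND3, with 237 and 247 CPM with IFN, against 218 and 220 CPM in untreated cells, where 4.34% of all genes were called, 3.03% higher and 1.31% lower. Both IFN libraries were above both untreated ones (0.14 ± 0.04, edgeR adjusted p = 0.0462), but the call was lost when any of the 4 libraries was left out (edgeR adjusted p = 0.275, 0.178, 0.0531 and 0.423). Without IFN replicate 1 CDKN1B was called in its place (-0.25, edgeR adjusted p = 0.0362). CDKN2C had 107 and 115 CPM with IFN against 121 and 122 CPM in untreated parental cells and was not called (-0.14 ± 0.05, edgeR adjusted p = 0.128). CDKN1B likewise had 59.8 and 53.3 CPM against 66.3 and 60.6 CPM (-0.17 ± 0.06, edgeR adjusted p = 0.134). The other 7 genes lay between -0.25 (CCNE2) and 0.02 (CDK4). In parental cells 5 of the 10 genes had an edgeR p under 0.05 before adjustment, CCND3 higher and CDKN2C, CDKN1B, CCNE2 and RB1 lower. Erythroid markers moved with IFN: 4 of 10 were higher in parental cells, with a sum of 2350 to 2420 CPM against 2040 to 2060 CPM untreated, and 3 of 10 in KRAB-D9 cells, and their part in the results was not tested. The IFN effect was not called different between KRAB-D9 and parental cells for any of the 10 genes by edgeR or by DESeq2, where edgeR called 0.303% of all genes, 0.145% higher and 0.158% lower. Before adjustment 3 genes had a p under 0.05. Of these CDKN2C came first, with a log2 fold change more negative in KRAB-D9 (-0.24 ± 0.07, edgeR adjusted p = 0.163), followed by CCND2 (0.24 ± 0.11, edgeR adjusted p = 0.49) and CCNE2 (0.27 ± 0.13, edgeR adjusted p = 0.506). Without replicate 2 of KRAB-D9 with IFN, CDK4 (-0.22) and CDKN2C (-0.28) were called.

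Between the untreated lines, CCND1 and CCND2 differed most among the 10 genes. SAMD9 also differed without treatment, with a mean of 60.6 CPM in VPR-D9 and 0.557 CPM in KRAB-D9, against 9.18 CPM in parental cells. Its log2 fold changes were 2.72 ± 0.07 and -3.99 ± 0.16 (edgeR adjusted p = 4.78e-23 and 2.1e-18), and its part in the results was not tested. CCND1 was nearly silent in VPR-D9 cells, with 0.167 and 0.189 CPM from 10 and 12 counts, against 10.8 and 9.37 CPM from 599 and 464 counts in parental cells. That is 56.5 times lower (95% counting interval 37.2 to 90.8; -5.80 ± 0.22, edgeR adjusted p = 2.4e-23). In KRAB-D9 cells CCND1 stood at 19.5 and 20.3 CPM, 1.97 times the parental level (0.98 ± 0.13, edgeR adjusted p = 6.93e-08). The 3 lines therefore did not overlap, and all 6 VPR-D9 libraries held 2 to 12 CCND1 counts. LTO1, which overlaps CCND1 in the count table, had 34.8 CPM in VPR-D9 against 31.6 CPM in parental cells and was not called (0.14 ± 0.08, edgeR adjusted p = 0.16).

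CCND2 was lower in both engineered lines, with 22.6 and 22.1 CPM in VPR-D9 cells and 23.9 and 22.6 CPM in KRAB-D9 cells, against 66 and 62.2 CPM in parental cells. It was 2.87 times lower in VPR-D9 (-1.52 ± 0.08, edgeR adjusted p = 8.18e-19) and 2.75 times lower in KRAB-D9 (-1.46 ± 0.08, edgeR adjusted p = 8.37e-18). CCND3 was lower in VPR-D9 (-0.30 ± 0.04, edgeR adjusted p = 2.71e-07) and higher in KRAB-D9 (0.39 ± 0.04, edgeR adjusted p = 1.77e-09). Both comparisons use the same parental libraries. In all, 5 of the 10 genes were called in VPR-D9 (1 higher, 4 lower), where 36.8% of all genes were called, 18.5% higher and 18.2% lower. In KRAB-D9 6 were called (4 higher, 2 lower), where 28.5% of all genes were called, 14.2% higher and 14.3% lower. Other lists moved with the lines. Of 20 G2/M genes 18 were lower in VPR-D9 than in parental cells, and in KRAB-D9 7 were lower and 3 higher. Of 10 erythroid markers 7 were lower and 1 higher in VPR-D9 and all 10 were higher in KRAB-D9, with sums of 1330 CPM in VPR-D9 and 2980 to 3000 CPM in KRAB-D9, against 2040 to 2060 CPM in parental cells. Their part in the differences was not tested.

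CCNE1 was lower in VPR-D9, with 29.7 and 30.4 CPM against 40.9 and 45.9 CPM in parental cells (-0.53 ± 0.08, edgeR adjusted p = 3.17e-07). It was also lower in KRAB-D9 (-0.23 ± 0.08, edgeR adjusted p = 0.0211), a call lost without parental replicate 2 (edgeR adjusted p = 0.302) or KRAB-D9 replicate 1 (0.138). CDKN2C was higher in VPR-D9, with 151 and 144 CPM against 121 and 122 CPM (0.28 ± 0.05, edgeR adjusted p = 1.01e-05). CDKN1B was higher in KRAB-D9, with 75.1 and 76.9 CPM against 66.3 and 60.6 CPM (0.26 ± 0.06, edgeR adjusted p = 0.00066). CDK4 was at the margin in both lines. It was 0.12 ± 0.05 higher in KRAB-D9 (edgeR adjusted p = 0.0462), a call lost when any of the 4 libraries was left out (edgeR adjusted p = 0.0593 to 0.325). In VPR-D9 it was not called (-0.12 ± 0.05, edgeR adjusted p = 0.053). It was called lower there with DESeq2 size factors, a filter at 1 CPM, a replicate block or a model of only the compared groups (edgeR adjusted p = 0.0347, 0.0227, 0.0438 and 0.00157), and by DESeq2 (adjusted p = 0.0452). RB1 in VPR-D9 (0.13 ± 0.06, edgeR adjusted p = 0.0637) was called higher without parental replicate 1 (0.21, edgeR adjusted p = 0.0182), with library totals (0.20, edgeR adjusted p = 0.00352) or with only the compared groups (0.13, edgeR adjusted p = 0.03).

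On the RPKM scale CCND3 made up most of the D-type cyclin RNA in every group. Its share was 95.1% in D2000 and 91.5% in D6, against 91.6% in untreated VPR-D9 cells. In KRAB-D9 cells it was 93.6% with both agents and 93.5% with doxycycline, against 88.1% with IFN alone and 87.5% in untreated cells, and in parental cells it was 82% with IFN against 78.9% without. CCND2 contributed most in parental cells, with 14.3% with IFN and 16.7% without. The summed RPKM of the 3 D-type cyclins was 28.5 in D2000 and 33.2 in D6, against 33.6 in untreated VPR-D9 cells. It was 44.9 in doxycycline-treated and 56.9 in untreated KRAB-D9 cells. The E-type cyclins shifted toward CCNE1 in D2000, where it made up 82.5% of their RPKM, against 72.1% in untreated VPR-D9 cells. There was no such shift in D6, at 72.3%. In KRAB-D9 cells the CCNE1 share was 80.8% with doxycycline against 74.2% untreated.

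**Figure D3:**
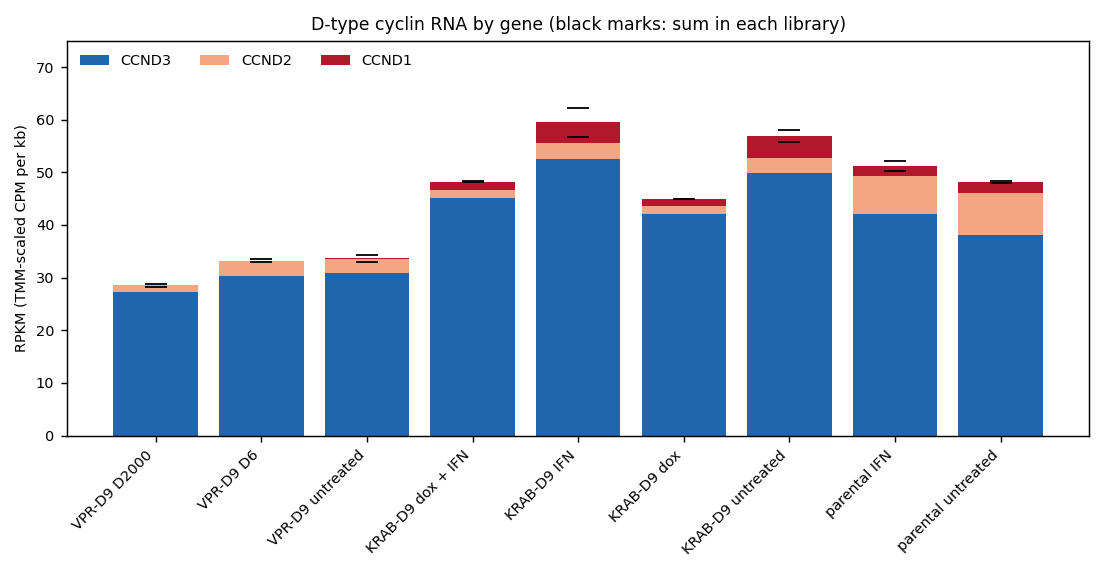
Summed RPKM of the D-type cyclins (vertical axis) in the 9 groups, as stacked means of CCND3 (blue), CCND2 (orange) and CCND1 (red) over 2 libraries, with black marks at the sum in each library. CCND3 fills most of every bar, 95.1% in D2000 and 78.9% in untreated parental cells.

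The balance of INK4 inhibitor RNA to D-type cyclin RNA, given here as a ratio of summed RPKM without a test, spanned a wide range. CDKN2C and CDKN2D together over CCND1, CCND2 and CCND3 gave 1.9 and 1.88 in the D2000 libraries and 1.51 and 1.38 in D6, against 1.56 and 1.55 in untreated VPR-D9 cells. In KRAB-D9 cells the ratio was 1.03 and 0.958 with both agents, 0.553 and 0.532 with IFN alone, and 1.19 and 1.19 with doxycycline, against 0.738 and 0.733 untreated. Parental cells had 0.768 and 0.79 with IFN, against 0.919 and 0.904 untreated. The ratio was thus highest in D2000 and lowest in KRAB-D9 cells with IFN, and within KRAB-D9 every doxycycline-treated library was above every library without doxycycline.

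Genes that work with these 10 were followed as lists, whose counts stand beside shares of all genes called of 46.1% in D2000, 6.6% in D6, and 24.7% and 22.3% for doxycycline in KRAB-D9 cells without and with IFN. All 26 E2F targets of S phase were lower in D2000 (median log2 fold change -0.73, against 0.06 for all genes; 24.2% of all genes were called lower), and 25 of 26 with library totals. The replicative helicase subunits MCM4 (-1.09 ± 0.04) and MCM7 (-1.04 ± 0.04), the nucleotide reductase subunit RRM2 (-0.92 ± 0.04) and the replication factor CDC45 (-0.92 ± 0.04) had the smallest adjusted p. In D6 12 were lower and none higher (median -0.13), with RRM2 at -0.20 ± 0.04 and MCM5 at -0.23 ± 0.05; the count was 6 to 8 when any 1 of the 4 libraries was left out and 7 with library totals. In doxycycline-treated KRAB-D9 cells 11 were lower and 1 higher (median -0.12; 6 to 8 lower when any 1 of the 4 libraries was left out, 7 with library totals), among them RRM2 (-0.29 ± 0.04) and MCM4 (-0.23 ± 0.04). With IFN present the counts were 3 lower and 4 higher (median 0.00), with the thymidine kinase TK1 higher (0.28 ± 0.05). There were 7 higher without replicate 2 of KRAB-D9 with IFN and 2 higher without replicate 1 with both agents, and library totals gave 1 lower and 6 higher.

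Of 19 tested partners of the G1 machinery, 15 were lower and 3 higher in D2000 (median -0.54). They included the S-phase cyclin CCNA2 (-1.12 ± 0.04), the CDK-activating phosphatase CDC25A (-1.20 ± 0.06), the second D-cyclin kinase CDK6 (-0.93 ± 0.04) and the E2F dimerisation partner TFDP1 (-0.91 ± 0.05). In D6 6 were lower and 1 higher. CDK2, the kinase of the E-type cyclins, was higher in D6 (0.37 ± 0.05), and CCNA2 (-0.24 ± 0.04) and CDK6 (-0.22 ± 0.04) were lower. In doxycycline-treated KRAB-D9 cells 6 were lower and 2 higher, with CDC25A at -0.33 ± 0.05, the repressive family member E2F4 at -0.21 ± 0.04 and the dimerisation partner TFDP2 at 0.31 ± 0.04. That split was 4 lower and 5 higher with library totals, and 3 lower without doxycycline replicate 1. With IFN present 3 were lower and 6 higher, among them the inhibitor CDKN1C, and 1 was lower with library totals or without replicate 2 with both agents. CDKN1C (p57) had 51.8 and 48 CPM with both agents, against 31 and 39.2 CPM with IFN alone (0.50 ± 0.09, edgeR adjusted p = 2.29e-05). In VPR-D9 cells it had 4.45 and 4.03 CPM in D2000 and 7.55 and 8.62 CPM in D6, against 11.9 and 11.8 CPM untreated (D6 -0.56 ± 0.10, edgeR adjusted p = 0.000281). With IFN alone in KRAB-D9 it was lower than untreated (-0.31 ± 0.09, edgeR adjusted p = 0.0196), a call lost without untreated replicate 1 (edgeR adjusted p = 0.0513), untreated replicate 2 (0.188) or IFN replicate 1 (0.424).

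Among 14 upstream regulators of D-type cyclins, p27 and p18, D2000 lowered 7 and raised 3, though the split was 5 lower and 7 higher with library totals. MYC, a driver of CCND2 and CDK4 transcription, had 53.3 and 56 CPM in D2000, against 164 and 168 CPM in untreated VPR-D9 cells (-1.60 ± 0.04). MYB, a factor of immature blood cells, was at -1.45 ± 0.04, the erythroid factor KLF1 at -1.15 ± 0.06, and FOXO4, of the family that raises CDKN1B, at 1.38 ± 0.07. In D6 only FOXO4 was called (0.38 ± 0.07), and MYC had 170 and 181 CPM. In doxycycline-treated KRAB-D9 cells 4 of the 14 were lower and 5 higher. MYC had 197 and 201 CPM with doxycycline, against 281 and 291 CPM untreated (-0.52 ± 0.04), and with IFN present 229 and 224 CPM, against 334 and 342 CPM with IFN alone (-0.58 ± 0.04). STAT5A, which carries cytokine signals to D-type cyclin genes, was lower by both comparisons (-1.004 ± 0.04 without and -0.85 ± 0.04 with IFN), as was MYB (-0.42 ± 0.04 and -0.34 ± 0.04), while the erythroid factor TAL1 was higher (0.38 ± 0.05 and 0.40 ± 0.05). IFN alone raised MYC in KRAB-D9 cells (0.24 ± 0.04) and in parental cells (0.16 ± 0.04), the second a call lost without untreated replicate 1 (edgeR adjusted p = 0.0798), untreated replicate 2 (0.115) or IFN replicate 2 (0.141).

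**Figure D4:**
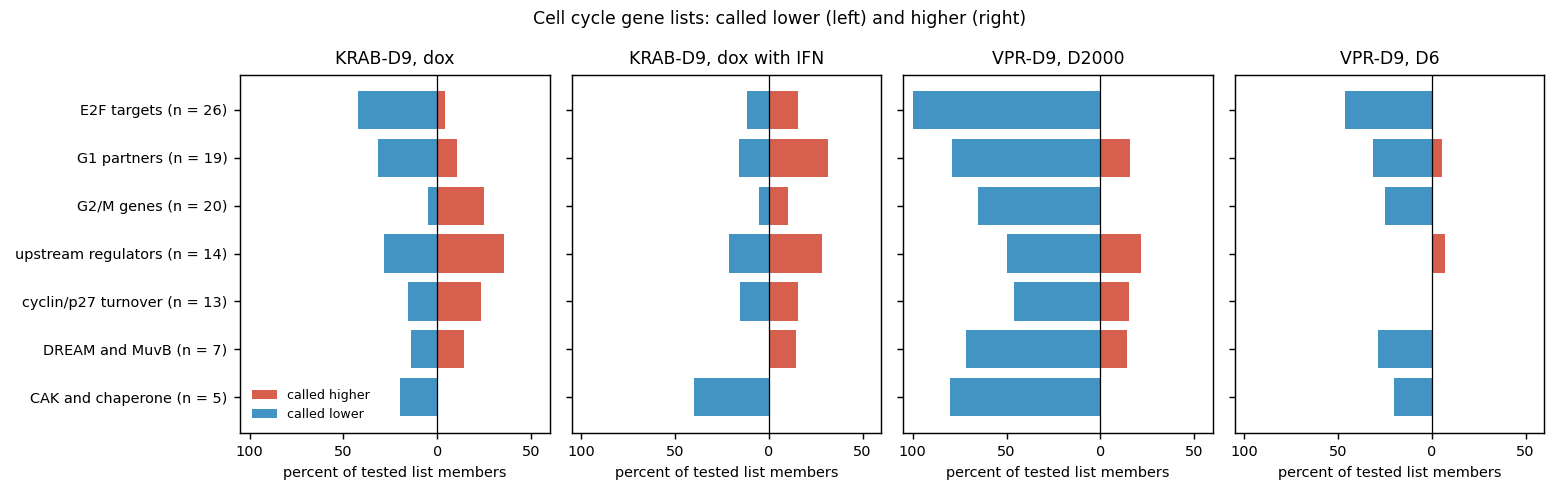
Percent of the tested genes of 7 lists (rows, n in the labels) that were called lower (blue, left of 0) or higher (red, right of 0) at an edgeR adjusted p under 0.05, in 4 doxycycline comparisons (panels). All 26 E2F targets of S phase are lower in D2000, against 12 in D6, 11 in KRAB-D9 with doxycycline and 3 in KRAB-D9 with doxycycline and IFN.

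The smaller lists are read against the same shares of all genes. Of 5 genes of the CDK-activating kinase and the chaperone that loads CDK4, 4 were lower in D2000, with HSP90AB1 at -0.96 ± 0.03 and the CDK4 co-chaperone CDC37 at -0.39 ± 0.04. CDC37 also fell by 0.34 ± 0.04 in doxycycline-treated KRAB-D9 cells and by 0.21 ± 0.04 with IFN present. Of 7 genes of the DREAM and MuvB complexes, which silence or activate cell cycle genes, 5 were lower and 1 higher in D2000 (3 and 2 with library totals), with MYBL2 at -0.87 ± 0.04. Of 13 genes of cyclin and p27 turnover, 6 were lower and 2 higher in D2000, turning to 4 lower and 6 higher with library totals and to 0 higher without untreated replicate 2. The p27 ligase cofactor CKS1B was at -0.71 ± 0.05 in D2000 and the ligase subunit SKP2 at -0.33 ± 0.04. In doxycycline-treated KRAB-D9 cells 2 were lower and 3 higher, and both counts were smaller when any library was left out. DESeq2 size factors gave 2 higher and library totals gave 5 higher. The higher genes included RNF123, a subunit of another p27 ligase (0.39 ± 0.07), and the kinase DYRK1B (0.60 ± 0.13). Of 20 G2/M genes 13 were lower and none higher in D2000, with 9 lower and 4 higher with library totals. In D6 5 were lower (1 to 4 when any library was left out), and doxycycline in KRAB-D9 gave 1 lower and 5 higher, or 3 and 5 with DESeq2 size factors. Under IFN the E2F targets of S phase and the G2/M genes differed. In doxycycline-treated KRAB-D9 cells IFN raised 10 of 26 E2F targets and lowered none (median 0.13), where 3.12% of all genes were called higher. Library totals gave 11 higher. Fewer were called higher when any library was left out, with medians of 0.132 to 0.151. For KRAB-D9 without doxycycline 3 were higher and 1 lower, and for parental cells 1 and 1. The KRAB-D9 counts changed in both directions with the library left out (medians 0.0296 to 0.0739). IFN lowered 9 of the 20 G2/M genes in each of KRAB-D9, doxycycline-treated KRAB-D9 and parental cells, with none higher. Of all genes 2.42%, 1.77% and 1.31% were called lower. With any library left out these counts were 3 to 11, 6 to 7 and 4 to 7.

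Across the 9 group means of log2 CPM, the genes most like each of the 10 were found among 10205 genes with a mean of at least 5 CPM. The points share libraries and lines, so Pearson's r is a description. Nearest to CCND1 were GALNT1 (r = 0.995) and PDLIM1 (0.993), and nearest to CDK4 were NAF1 (0.994) and BYSL (0.993). CCND2 was most like GRSF1 (0.989) and KPNA2 (0.988), and CCND3 most like KLHL18 (0.992) and ENC1 (0.986). CDKN1B was most like DPYSL2 (0.988), CCNE2 like PDRG1 (0.971), CDKN2D like THAP2 (0.964), RB1 like TRIQK (0.959), CDKN2C like NCOA2 (0.952) and CCNE1 like TDRKH (0.948). None of these is another member of the set.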

How the data were processed

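PolyA-selected RNA was sequenced with a stranded kit, per the labels' protocols. The authors deposited raw read counts per gene for 18 libraries. Per the submitters' processing notes the tools were STAR 2.7.8a, featureCounts 2.0.2, cutadapt 2.10 and FastQC 0.11.9 (order not stated), with build GRCh38.p13. No source used here states the annotation release, the strand setting or how multi-mapping reads were handled, so genes that overlap others (CCND1 with LTO1, CCNE2 with INTS8 and NDUFAF6, CDK4 with TSPAN31 and MARCHF9, RB1 with RCBTB2) are uncertain.

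The filterByExpr filter by group kept 22143 genes, and counts were scaled by TMM. A quasi-likelihood model (edgeR 4.0.16, robust, R 4.3.3) took a mean for each of 9 groups over all 18 libraries (common biological coefficient of variation 0.0569). The standard error is the size of the log2 fold change over the square root of the F statistic. P-values were adjusted by Benjamini-Hochberg over all genes tested, with a threshold of 0.05. RPKM divides CPM by the deposited gene length. The model was run on counts simulated with its own fitted spread, with changes set only in KRAB-D9 with doxycycline. Such data cannot show how it handles the wider spread of KRAB-D9 with IFN. Correlations used log2 CPM with a prior count of 2. Promoter sequences are from RefSeq.

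Alternatives were DESeq2 1.42.0, its size factors, library totals, other filters, a replicate block, models of only the compared groups, and each library left out. All 10 genes were tested in every comparison. From each pathway list at most 4 members with the smallest adjusted p in a main comparison are named. A list member that this rule would name is not reported here. Members and lists were chosen with earlier results of these data known. Library depth was 32.7 M to 63 M counts; the counting interval for CCND1 covers counting error only.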

Additional observations from a re-analysis of the deposited data

Results flagged for a closer look

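For 3 of the 10 genes the change in D2000 VPR-D9 cells differed from the change in doxycycline-treated KRAB-D9 cells by a test of the difference itself, a share close to the 31.3% of all genes called in that test. The difference, VPR-D9 minus KRAB-D9 on the log2 scale, was -0.418 for CDK4 (edgeR adjusted p = 3.44e-06), -0.291 for CDKN2C (edgeR adjusted p = 0.000716) and -0.269 for RB1 (edgeR adjusted p = 0.0069). The CDKN2C and RB1 differences were not called with library totals (edgeR adjusted p = 0.303 and 0.528). That scaling raised the median difference of all genes by 0.192, so the size of the CDK4 difference depends on it too. Both treated CDK4 libraries were below both of their controls in each line. No source used here gives the dose or duration of D2000 relative to the doxycycline given to KRAB-D9 cells, so line, fusion and treatment cannot be told apart in these differences.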

How the results depend on the processing

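Of 130 results for single genes, 129 kept direction and call with the replicate block and 1 was gained, CDK4 in untreated VPR-D9 against parental cells (-0.12, edgeR adjusted p = 0.0438). The replicate numbers do not pair the samples: over 36 pairs of groups the deviations correlated at -0.12 to 0.196. With library totals 116 of 130 were unchanged and 3 reversed, CCND3 (0.0497) and RB1 (0.20) in D2000 and CCND3 in D6 against D2000 (-0.0341). Library totals moved the share of calls that were higher from 47.6 to 68.6% in D2000, 48.4 to 69% in D6, 53.6 to 31.2% in D6 against D2000, 46.7 to 61.4% for doxycycline with IFN and 38.9 to 63.2% for the difference between lines. They shifted the median of all genes by 0.23 in D2000, -0.195 in D6 against D2000 and 0.192 in the difference between lines.

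Of the 10 genes, IFN calls in parental cells were 0 with no filter and 2 in a model of only the compared groups. That model gave 1 call for IFN in KRAB-D9 and 1 in D6. The IFN call in doxycycline-treated KRAB-D9 became 0 with DESeq2 size factors, library totals or no filter. Over all genes, models of only the compared groups called 465 for IFN in KRAB-D9, 3270 for doxycycline with IFN and 2327 in D6. The IFN difference between lines had 133, 22 and 126 calls with no filter, only the compared groups and DESeq2, and the IFN by doxycycline difference 74, 14 and 85.

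With 1 library left out at a time, calls over all genes ran from 467 to 781 for IFN in parental cells, 815 to 2202 for IFN in KRAB-D9, 591 to 650 for IFN in doxycycline-treated KRAB-D9, 4081 to 4228 for doxycycline in KRAB-D9, 3492 to 4593 for doxycycline with IFN, 752 to 853 in D6, 20 to 992 for the IFN difference between lines and 17 to 769 for the IFN by doxycycline difference (both highest without KRAB-D9 with IFN replicate 2). Calls among the 10 genes ran from 0 to 1, 1 to 3 and 0 to 1 in the 3 IFN comparisons, 8 to 9 for doxycycline in KRAB-D9 without and with IFN, 5 to 7 for D6 against D2000, 5 to 6 and 4 to 5 for untreated VPR-D9 and KRAB-D9 against parental cells, 0 to 2 for each IFN difference and 2 to 3 for the doxycycline difference between lines; they stayed at 6 in D2000 and 0 in D6. Where a call changed, the cause was not tested. CCND1 in VPR-D9 rests on 2 to 12 counts per library, so its change with doxycycline there was not detectable at this depth.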

Other observations

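The loss of CCND1 RNA in untreated VPR-D9 cells was set beside its neighbours on chromosome 11, a choice made after the values were seen. Within 1 Mb, GAL, the galanin precursor, had 6.24 CPM in VPR-D9 cells against 62.1 CPM in parental cells (-3.31 ± 0.09, edgeR adjusted p = 4.94e-28), while in KRAB-D9 cells it had 60.4 CPM and was not called (edgeR adjusted p = 0.77). MYEOV was lower in both engineered lines, with 16.4 CPM in VPR-D9 and 14.8 CPM in KRAB-D9 cells against 38.1 CPM in parental cells. The cortactin gene CTTN had 194 CPM in VPR-D9 against 195 CPM in parental cells and PPFIA1 had 88.9 against 85.5 CPM, neither of them called in VPR-D9 (edgeR adjusted p = 0.976 and 0.443). CPT1A, the gene of a carnitine palmitoyltransferase, was lower in VPR-D9, with 51.5 CPM against 68.2 CPM, and lower still in KRAB-D9 cells, with 12.8 CPM. MRPL21 was also lower in VPR-D9 (-0.285 ± 0.05, edgeR adjusted p = 1.35e-05). TPCN2 was higher there (0.467 ± 0.14, edgeR adjusted p = 0.0071), as was ANO1 at 0.065 against 0 CPM (4.84 ± 1.87, edgeR adjusted p = 0.0394). The remaining tested genes within 1 Mb were not called in VPR-D9.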
